A study of Homo sapiens with 12 samples.

Results

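The 10 genes described here are transcripts that growth factor signalling through the MAP kinase ERK is known to induce. Several of them, but not all, encode proteins that dampen the same signal. The 10 genes are the MAP kinase phosphatases DUSP6, DUSP5, DUSP4, DUSP1 and DUSP10, the Ras pathway inhibitors SPRY4 and SPRED1, the ETS transcription factors ETV4 and ETV5, and PHLDA1, a pleckstrin-homology-like domain protein. They were chosen by gene name, with earlier results of these data known, and 10 of the 38611 genes in the deposited tables matched. RNA was sequenced from PC3 and DU145, human prostate cancer lines that were established from metastases, each as a subline resistant to docetaxel and as its parental line, with 3 libraries in each of the 4 groups. Docetaxel, a taxane, stabilises microtubules and thereby stops cells in mitosis.

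Per the series description, the PC3 subline was started at 0.5 nm/ml docetaxel and raised stepwise until its inhibitory concentration reached 15 nm/ml. The DU145 subline was started at 10 nm/ml and raised until that concentration reached 1800 nm/ml. The unit is printed as the submitters wrote it, and no dose is compared between PC3 and DU145. The labels name 1 resistant subline per line and do not say whether it was a clone or whether docetaxel was in the medium at harvest. The labels do not say that a group's 3 libraries are separate cultures. The p-values below therefore cover the spread between these samples alone, and that spread may be technical.

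As background, receptor tyrosine kinases activate Ras, RAF, MEK and ERK in turn, and ERK in the nucleus raises transcription of immediate and delayed target genes. Some of these targets close a negative feedback loop: DUSP phosphatases remove phosphate from MAP kinases, and Sprouty and SPRED proteins act upstream at the level of Ras and RAF. ETV4 and ETV5 are among the genes that the repressor Capicua holds down until ERK inactivates it, and DUSP6, SPRY4 and SPRED1 are widely used with them as a transcript readout of ERK activity. ERK phosphorylation itself was not analysed here, so the values below are transcript levels only.

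Promoter windows of 300 bases, from 250 bases before to 50 after a RefSeq start site (GRCh38.p14), were at hand for 6 of the 10 members. The windows of DUSP6 and SPRY4 are shown because these genes had the widest changes below, and that of DUSP1 because it moved in the same direction in both lines. Capitals mark a motif match in DUSP6 and DUSP1, and the SPRY4 window held none of the motifs searched. The windows lie at chr12:89352452-89352751 for DUSP6, chr5:142324198-142324497 for SPRY4 and chr5:172771146-172771445 for DUSP1, all on the minus strand and printed 5′ to 3′ along the gene.
DUSP6: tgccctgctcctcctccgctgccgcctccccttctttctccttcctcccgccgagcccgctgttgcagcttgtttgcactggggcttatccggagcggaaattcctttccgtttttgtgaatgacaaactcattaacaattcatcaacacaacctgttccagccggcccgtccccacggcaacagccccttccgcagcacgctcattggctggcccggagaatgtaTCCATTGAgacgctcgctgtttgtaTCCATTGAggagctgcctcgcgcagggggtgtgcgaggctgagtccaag
SPRY4: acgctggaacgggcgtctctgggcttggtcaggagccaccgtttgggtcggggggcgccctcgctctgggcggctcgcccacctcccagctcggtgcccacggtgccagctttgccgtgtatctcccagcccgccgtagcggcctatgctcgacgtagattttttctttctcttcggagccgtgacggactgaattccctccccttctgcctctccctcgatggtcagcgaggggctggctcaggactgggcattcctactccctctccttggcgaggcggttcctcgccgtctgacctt
DUSP1: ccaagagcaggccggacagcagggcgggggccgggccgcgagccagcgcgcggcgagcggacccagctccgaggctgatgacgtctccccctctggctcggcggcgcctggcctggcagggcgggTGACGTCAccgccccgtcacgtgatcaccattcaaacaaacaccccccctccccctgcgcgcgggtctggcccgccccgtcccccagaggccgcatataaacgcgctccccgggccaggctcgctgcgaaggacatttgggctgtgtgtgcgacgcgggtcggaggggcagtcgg
The motifs searched on both strands were the Capicua octamer TGAATGAA or TCAATGAA, its variant TGAATGGA or TCAATGGA, the ETS core CCGGAA, the AP-1 site TGANTCA, the cAMP response element TGACGTCA and the CArG box, and the variant octamer was added after the windows were seen. DUSP6 carried TCCATTGA, the reverse complement of TCAATGGA, at positions -24 and 2 counted from the start site as 1, and 1.54% of 35116 RefSeq windows hold that variant. DUSP1 carried TGACGTCA at position -125, a motif in 1.85% of windows. Of the windows not shown, the upstream one of DUSP10 held TCAATGAA at position 21 (2.33% of windows hold the octamer) and that of PHLDA1 held TTCCGG at position -89 (17.25% of windows hold the ETS core). The AP-1 site (7.71% of windows) and the CArG box (1.29%) were not matched in any member's window, nor was any motif in SPRED1 or in the other DUSP10 window. A match is a description of letters and was not tested as a binding site. The RefSeq start site of SPRY4 lies inside the span that the deposited tables give the gene, which ends at position 142326455, so its window is that of an internal start.

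Library totals ran from 62513103 to 72530254 counts, and 25695 to 26401 genes had a count. The first resistant PC3 library stood apart from its group, its chi-square per gene being 33.8 and 33.85 to the other libraries, against 16.71 between those and 13.45 to 19.21 within the other groups. Without it 1 call of a member was lost, that of DUSP4 in PC3, which leaves 2 members higher and 6 lower in that line. The list counts that differ without it are given both ways. The mitochondrial share of counts was 3.50% ± 0.04 in resistant PC3 and 5.82% ± 0.20 in parental PC3, and 7.08% ± 0.05 in resistant DU145 and 4.11% ± 0.17 in parental DU145 (SD, n = 3 each). All 5 epithelial markers (KRT8, KRT18, KRT19, EPCAM, CDH1) were above 1 CPM in every group, and their sum was 551 to 585 CPM in resistant PC3 and 1030 to 1040 in parental PC3, and 1530 to 1570 in resistant DU145 and 896 to 934 in parental DU145. Both measures moved in the same direction as most members did, lower in resistant PC3 and higher in resistant DU145, and their part in the results was not tested. Of the epithelial markers, KRT19 went against the sum in DU145, at 172 CPM in the resistant and 213 in the parental libraries. Of 5 leukocyte markers only CD68 reached 1 CPM, at 79.0 ± 6.64 CPM in resistant and 52.4 ± 7.34 in parental PC3, and 28.8 ± 9.35 in resistant and 17.1 ± 1.74 in parental DU145 (SD, n = 3 each), without overlap in either line. PTPRC was at 0 in DU145 and at most 0.152 CPM in PC3. Of 4 endothelial markers KDR and PECAM1 exceeded 1 CPM in PC3, where the list summed to 53.7 to 76.6 CPM in the resistant and 177 to 232 CPM in the parental libraries, while CDH5 and VWF stayed under 0.3 CPM in every group. KDR was lower in resistant PC3 (40.8 against 178 CPM in parental PC3), and PECAM1 was higher (27.3 against 18.3 CPM). The 5 fibroblast markers summed to 11.1 to 16.7 CPM in resistant and 111 to 116 CPM in parental PC3, and to 4.49 to 8.55 CPM in resistant and 11 to 19.1 CPM in parental DU145. The part of these lists in the results was not tested either. CTNNA1, known to be lost in PC3, was at 2.23 CPM in resistant and 2.92 in parental PC3, and at 383 in resistant and 519 in parental DU145.

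The expression of the 10 members was compared between each resistant subline and its parental line. In resistant PC3, 9 of the 10 members passed the test (edgeR's quasi-likelihood test, Benjamini-Hochberg adjusted p under 0.05), against 44.0% of the 24128 genes tested. Of these, 6 were lower (21.6% of all genes were) and 3 were higher (22.4%). In resistant DU145 also 9 of 10 passed, against 39.6% of genes, but 8 were higher (18.9% of all genes were) and 1 was lower (20.7%). The all-gene shares here and below include many genes with lower counts than any member, and such genes pass less readily. When only genes with a mean of at least 5 CPM were fitted, at least 8719 passed in PC3 and 8088 in DU145. About 12201 genes reached that mean. The median log2 change of the members was -0.37 in PC3 and 0.85 in DU145, where the median of all genes was 0 in both. The 3 resistant and 3 parental libraries did not overlap in CPM for 9 members in PC3, against 54.4% of genes, and for 9 in DU145, against 51.2%. CPM are counts per 1e+06 counted reads after TMM scaling of the library totals, and positions below are those of the deposited tables, whose coordinates match GRCh38. In bulk samples such as these, fewer expressing cells and less RNA per cell cannot be told apart.

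**Figure D1:**
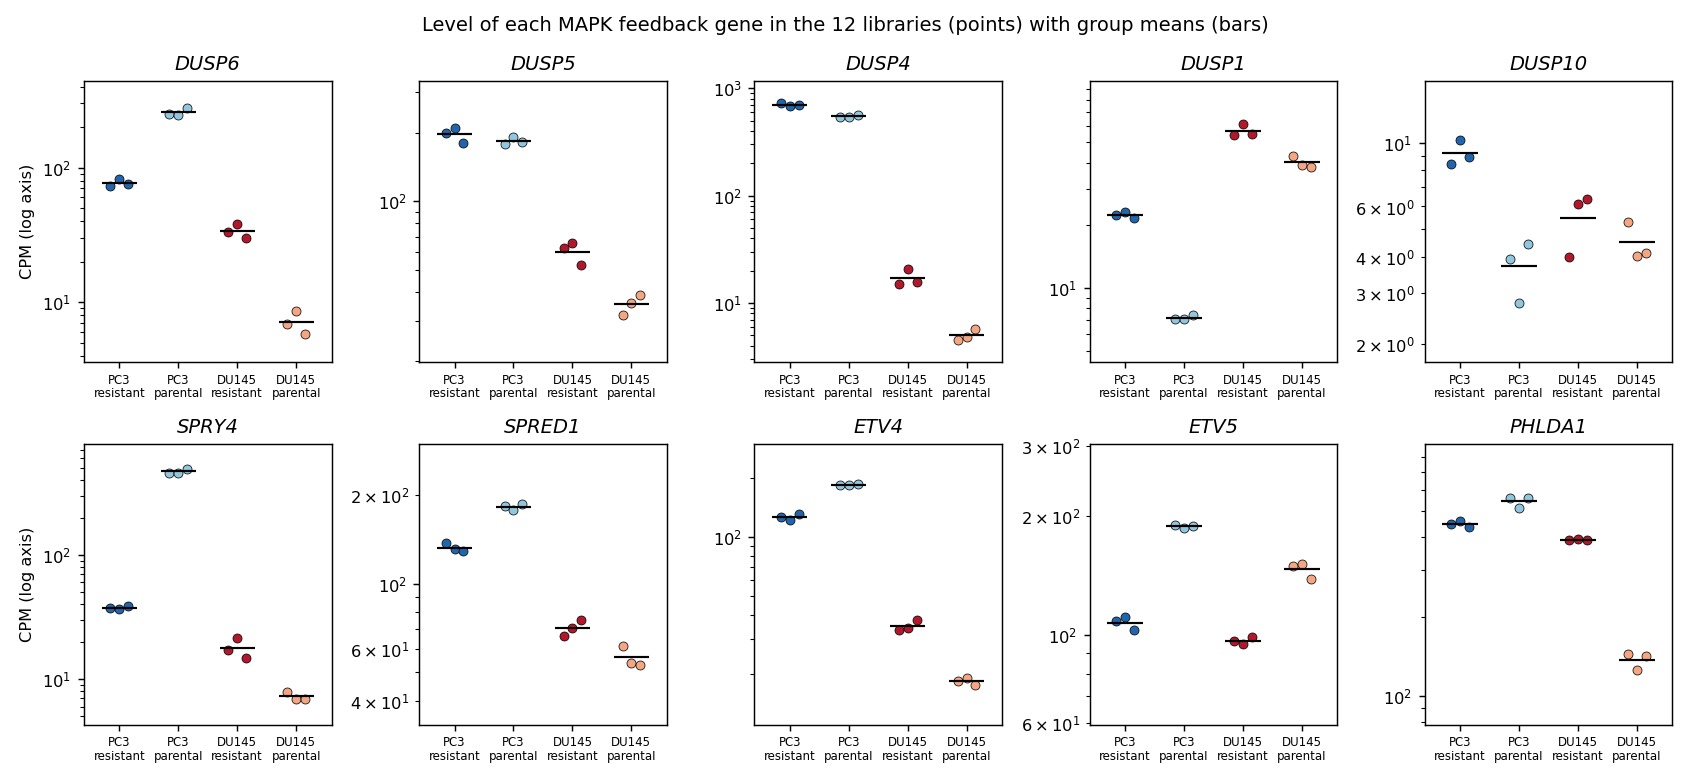
Level of each member in CPM (log axis) in the 12 libraries, as points, with the group mean as a bar. DUSP6 and SPRY4 are lower in resistant than in parental PC3 and higher in resistant than in parental DU145, and ETV5 is lower in both resistant sublines. Within a line, the resistant and parental groups overlap only for DUSP5 in PC3 and DUSP10 in DU145.

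DUSP6 (ENSG00000139318, chromosome 12, 89347235 to 89352501, minus strand) encodes the cytoplasmic phosphatase that acts on ERK itself. Its level was 73.3, 82.2 and 75.0 CPM in the resistant PC3 libraries, against 249.8, 248 and 275 CPM in parental PC3. In DU145 it was 33.2, 37.96 and 30.1 CPM in the resistant libraries, against 6.88, 8.58 and 5.75 CPM in parental DU145. The groups were far apart in both lines, and they moved in opposite directions. DUSP6 was 3.35-fold lower in resistant PC3 (log2 change -1.75 ± 0.11, SE; adjusted p = 4.14e-08) and 4.77-fold higher in resistant DU145 (2.25 ± 0.13; adjusted p = 1.18e-08). An antisense gene, AC024909.2, overlaps its exons, and the strand setting of the counting is not given in the sources used here. That gene had 4 CPM in resistant and 8.02 in parental PC3, and 0.0712 in resistant and 1.09 in parental DU145.

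DUSP5 (ENSG00000138166, chromosome 10, 110497907 to 110511533, plus strand), the nuclear ERK phosphatase, was held in PC3 at 199.9, 210.1 and 179 CPM in the resistant libraries and 178, 190.5 and 183 CPM in the parental ones. These groups overlapped, and the change of 0.10 ± 0.09 on the log2 scale did not pass (adjusted p = 0.407). In DU145, DUSP5 had 62.5, 65.4 and 52.5 CPM in the resistant libraries, against 31.7, 35.9 and 38.9 CPM in the parental ones. It was 1.69-fold higher there (0.76 ± 0.09; adjusted p = 7.95e-06), without overlap.

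DUSP4 (ENSG00000120875, chromosome 8, 29333064 to 29350684, minus strand), a nuclear phosphatase of ERK, JNK and p38, was the member with the widest gap between the lines. It had 729, 689 and 692 CPM in resistant PC3 and 538.5, 536 and 562 CPM in parental PC3. In DU145, DUSP4 had 14.9, 20.9 and 15.5 CPM in the resistant libraries and 4.52, 4.84 and 5.74 CPM in the parental ones. DUSP4 was higher in the resistant subline of both lines, 1.29-fold in PC3 (0.37 ± 0.11; adjusted p = 0.0139) and 3.40-fold in DU145 (1.77 ± 0.13; adjusted p = 3.87e-07). The PC3 call was lost without resistant library 1, which stood apart (0.34, adjusted p = 0.054), or without parental library 2 (0.36, adjusted p = 0.0613).

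DUSP1 (ENSG00000120129, chromosome 5, 172768096 to 172771195, minus strand), an immediate early phosphatase that prefers p38 and JNK, was the only member other than DUSP4 called higher in both resistant sublines. Its level was 22.4, 23.3 and 21.6 CPM in resistant PC3, against 7.07, 7.13 and 7.43 CPM in parental PC3. In DU145 it was 54.4, 61.7 and 55.0 CPM in the resistant libraries, against 43.2, 38.9 and 38.3 CPM in the parental ones. The change was 3.11-fold in PC3 (1.64 ± 0.08; adjusted p = 1.67e-10) and 1.42-fold in DU145 (0.51 ± 0.08; adjusted p = 5.13e-05), so the line with the lower level changed more.

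DUSP10 (ENSG00000143507, chromosome 1, 221701424 to 221742089, minus strand), which acts on JNK and p38, had the lowest mean CPM of the members over the 12 libraries. It had 8.43, 10.2 and 8.93 CPM in resistant PC3, against 3.95, 2.78 and 4.45 CPM in parental PC3. In DU145 it had 4.01, 6.10 and 6.36 CPM in the resistant libraries, against 5.32, 4.06 and 4.15 CPM in the parental ones. The PC3 groups were separate, with a 2.47-fold higher level in the resistant libraries (1.303 ± 0.235; adjusted p = 0.000244). The DU145 groups overlapped, with the first resistant library below every parental one, and the change of 0.28 ± 0.23 did not pass (adjusted p = 0.385).

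**Figure D2:**
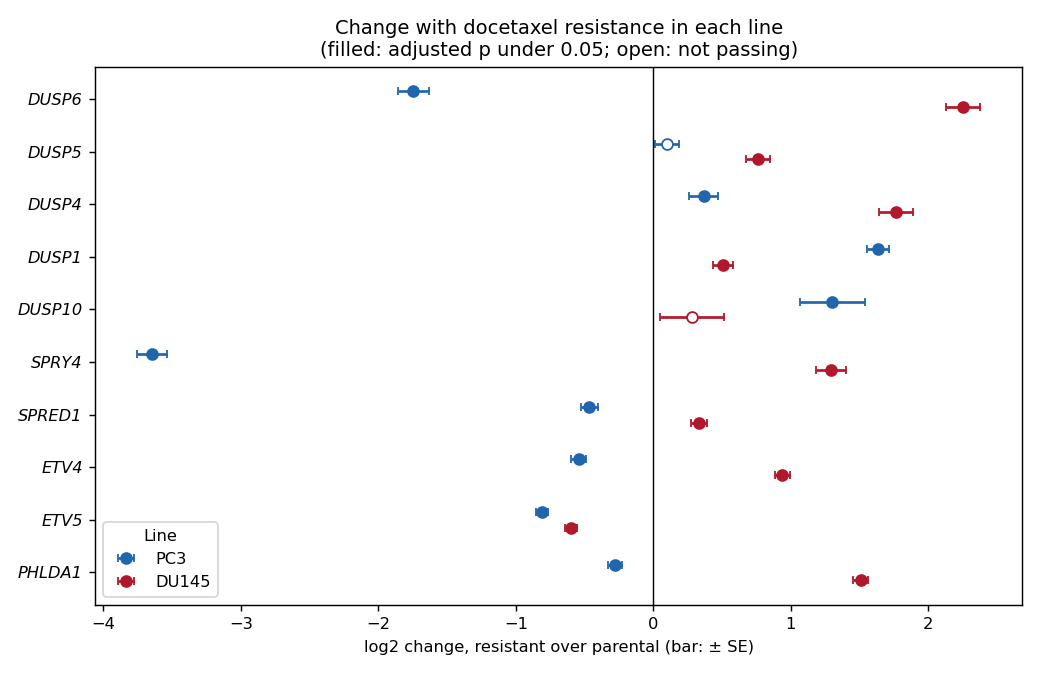
Change of each member, resistant over parental, as log2 (points) with its standard error (bars), in PC3 and DU145; open points did not pass the test. DUSP6, SPRY4, SPRED1, ETV4 and PHLDA1 lie left of 0 in PC3 and right of it in DU145, and the DUSP6 and SPRY4 points are the farthest apart.

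SPRY4 (ENSG00000187678, chromosome 5, 142310427 to 142326455, minus strand), a Sprouty protein that inhibits Ras and RAF activation below growth factor receptors, had the largest change of any member. It had 37.4, 36.8 and 38.8 CPM in resistant PC3, against 460.6, 460.7 and 491 CPM in parental PC3. In DU145, SPRY4 had 17.1, 21.5 and 14.8 CPM in the resistant libraries, against 7.93, 6.88 and 6.97 CPM in the parental ones. SPRY4 was 12.5-fold lower in resistant PC3 (-3.65 ± 0.11; adjusted p = 1.84e-11) and 2.45-fold higher in resistant DU145 (1.29 ± 0.11; adjusted p = 6.16e-07). Small RNA genes in its introns had at most 1.26 CPM in any group, and the antisense SPRY4-AS1, also within introns, at most 2.69 CPM.

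SPRED1 (ENSG00000166068, chromosome 15, 38252836 to 38357249, plus strand), which recruits the Ras GTPase-activating protein neurofibromin to the membrane, moved the same way as SPRY4 but less. It had 138, 131 and 129 CPM in resistant PC3, against 184, 178 and 187 CPM in parental PC3. In DU145 it had 66.4, 70.5 and 75.1 CPM in the resistant libraries, against 61.3, 54.0 and 53.1 CPM in the parental ones. The groups did not overlap in either line. SPRED1 was 1.38-fold lower in resistant PC3 (-0.46 ± 0.06; adjusted p = 7.4e-06) and 1.26-fold higher in resistant DU145 (0.33 ± 0.06; adjusted p = 0.000304).

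The ETS factors ETV4 (ENSG00000175832, chromosome 17, 43527844 to 43546340, minus strand) and ETV5 (ENSG00000244405, chromosome 3, 186046314 to 186110318, minus strand), close relatives of the PEA3 group, went apart in DU145. ETV4 had 127, 122 and 131 CPM in resistant PC3, against 184, 183 and 186 CPM in parental PC3. In DU145 it had 33.3, 34.4 and 37.8 CPM in the resistant libraries, against 18.4, 19.0 and 17.6 CPM in the parental ones. ETV4 was 1.46-fold lower in resistant PC3 (-0.54 ± 0.05; adjusted p = 3.72e-07) and 1.92-fold higher in resistant DU145 (0.94 ± 0.06; adjusted p = 1.75e-09). ETV5 had 108, 111 and 103 CPM in resistant PC3, against 190.0, 186 and 189 CPM in parental PC3. In DU145, ETV5 had 96.5, 95.1 and 98.7 CPM in the resistant libraries, against 149, 151 and 139 CPM in the parental ones. ETV5 was the only member called lower in both sublines, 1.75-fold in PC3 (-0.81 ± 0.04; adjusted p = 4.33e-10) and 1.51-fold in DU145 (-0.60 ± 0.04; adjusted p = 1.87e-08).

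Both ETS genes share exonic sequence with a neighbour, so their counts are less certain. DHX8, an RNA helicase gene on the opposite strand of ETV4, had 81.5 CPM in resistant and 68.0 in parental PC3, and 82.2 in resistant and 95.2 in parental DU145. It changed in the opposite direction to ETV4 in each line (0.26 in PC3, adjusted p = 0.00174; -0.21 in DU145, adjusted p = 0.00851; edgeR's quasi-likelihood test). DGKG, a diacylglycerol kinase gene on the same strand as ETV5, had 0.839 CPM in resistant and 3.88 in parental PC3, and 17.3 in resistant and 14.0 in parental DU145. It was lower in resistant PC3, the same direction as ETV5 (-2.21, adjusted p = 9.43e-05), and did not pass in DU145 (0.31, adjusted p = 0.491; edgeR's quasi-likelihood test).

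PHLDA1 (ENSG00000139289, chromosome 12, 76025447 to 76031776, minus strand) is induced by growth factors and stress in many cell types. It had 447, 460.7 and 437 CPM in resistant PC3, against 561, 513 and 559.5 CPM in parental PC3. In DU145 it had 387.5, 392 and 389.6 CPM in the resistant libraries, against 144, 125 and 142 CPM in the parental ones. PHLDA1 was 1.22-fold lower in resistant PC3 (-0.28 ± 0.05; adjusted p = 0.000228) and 2.84-fold higher in resistant DU145 (1.51 ± 0.05; adjusted p = 3.35e-12). The antisense genes over its exons had at most 0.0595 CPM.

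Whether the resistance effect differed between the lines was tested as the PC3 effect minus the DU145 effect in the same model. All 10 members passed (edgeR's quasi-likelihood test), against 42.1% of all genes; 2 had the higher effect in PC3 (22.1% of all genes did) and 8 the lower (20.0%). The median difference of the members was -1.10 on the log2 scale, and that of all genes 0.02. The difference was -4.94 ± 0.15 for SPRY4 (adjusted p = 2.89e-11) and -4.00 ± 0.17 for DUSP6 (adjusted p = 8.22e-10). PHLDA1 followed at -1.79, ETV4 at -1.48, DUSP4 at -1.40, SPRED1 at -0.80 and DUSP5 at -0.66. ETV5 was lower in both sublines and differed by only -0.21 (adjusted p = 0.0111). The 2 members with the larger effect in PC3 were DUSP1 at 1.13 ± 0.11 and DUSP10 at 1.02 ± 0.33 (adjusted p = 0.02). The DUSP10 call rested on single libraries: it was lost without resistant PC3 library 2 (0.95, adjusted p = 0.0504), parental PC3 library 2 (0.85, 0.0526), resistant DU145 library 1 (0.84, 0.0512) or parental DU145 library 1 (0.87, 0.0604).

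The lines themselves were compared next, on libraries that the contrasts above also use. In parental cells 9 of the 10 members differed between PC3 and DU145, against 60.3% of all genes, with 8 higher in PC3 (30.9% of all genes were) and 1 lower (29.5%). Parental PC3 had 108-fold more DUSP4 (log2 difference 6.76), 64.8-fold more SPRY4 (6.02) and 36.4-fold more DUSP6 (5.19) than parental DU145. ETV4 (3.33), DUSP5 (2.37), PHLDA1 (1.99), SPRED1 (1.71) and ETV5 (0.36) were also higher in parental PC3, DUSP1 was lower (-2.48), and DUSP10 did not pass (-0.28, adjusted p = 0.33).

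Between the resistant sublines all 10 members differed, against 59.8% of all genes, with 9 higher in PC3 (30.6% of all genes were) and 1, DUSP1, lower (29.1%). The differences were smaller there for 9 of the 10 members, against 51.8% of all 24128 genes. The change in this difference from parental to resistant cells is the same quantity as the PC3 effect minus the DU145 effect above. It restates those values and is no further support. DUSP6 differed by 1.19 between the resistant sublines and by 5.19 between the parental lines, and SPRY4 by 1.08 between the resistant and 6.02 between the parental ones. PHLDA1 differed by 0.20 in resistant and 1.99 in parental cells, and ETV4 by 1.85 in resistant and 3.33 in parental cells. DUSP4 kept a wide gap of 5.36 between the resistant sublines. DUSP10 was the exception, at 0.74 (adjusted p = 0.0116) in resistant and -0.28 in parental cells. The calls of DUSP10, ETV5 (0.15) and PHLDA1 (0.20) between the resistant sublines did not hold in every alternative. That of DUSP10 was lost without resistant DU145 library 1 (0.54, adjusted p = 0.0715) or resistant PC3 library 2 (0.65, adjusted p = 0.0525), and ETV5 without resistant PC3 library 2 (0.12, adjusted p = 0.0538). With upper quartile scaling ETV5 was at 0.05 (adjusted p = 0.372) and PHLDA1 at 0.10 (adjusted p = 0.115), and neither passed. ETV5 also failed to pass when only genes of at least 5 CPM were fitted (0.06, adjusted p = 0.2) and with limma on log2(FPKM + 1) (0.09, adjusted p = 0.0677).

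**Figure D3:**
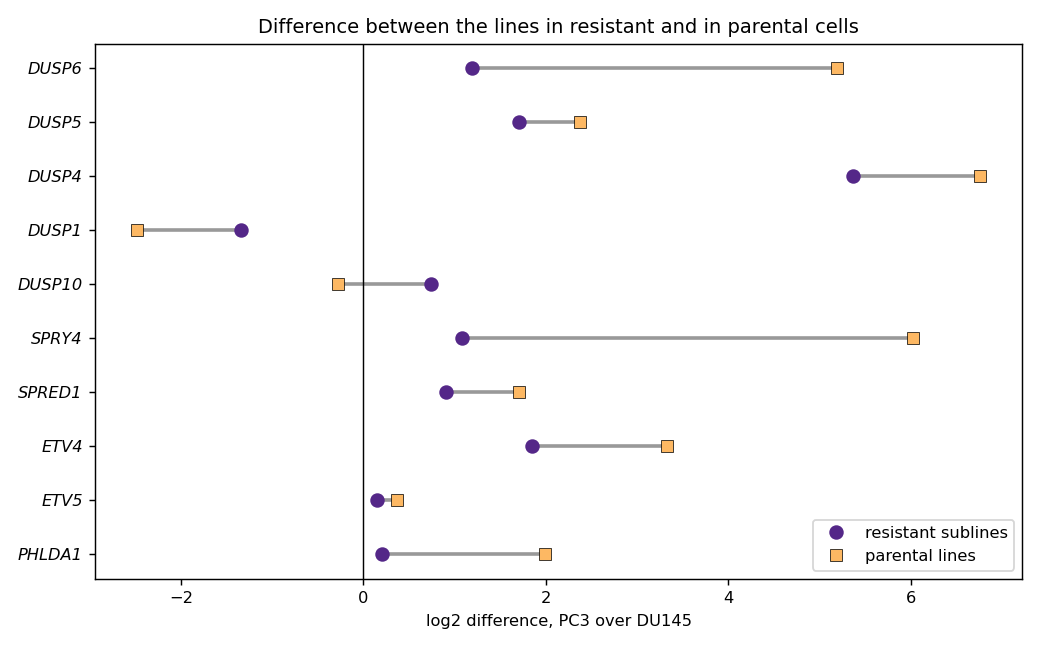
Log2 difference between the lines, PC3 over DU145, for each member in the resistant sublines (circles) and the parental lines (squares). For every member but DUSP10 the circle lies closer to 0 than the square, most of all for SPRY4 (1.08 in resistant against 6.02 in parental cells) and DUSP6 (1.19 in resistant against 5.19 in parental cells). The step from square to circle is the PC3 effect minus the DU145 effect, shown in another form.

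To compare levels between genes, the deposited FPKM values were used, which divide by transcript length. Summed over the 5 phosphatases, the level was 202 ± 7.64 FPKM in resistant PC3 and 218 ± 5.22 in parental PC3, and 65.7 ± 5.88 in resistant DU145 and 39.1 ± 0.49 in parental DU145 (SD, n = 3 each). DUSP6 supplied 9.55% ± 0.53 of that sum in resistant PC3 and 30.5% ± 1.04 in parental PC3. In DU145 it supplied 13.4% ± 0.43 in the resistant and 4.82% ± 0.99 in the parental libraries. DUSP4 supplied 46.4% ± 1.89 in resistant PC3 and 34.2% ± 0.39 in parental PC3, but 3.59% ± 0.41 in resistant DU145 and 1.82% ± 0.23 in parental DU145. DUSP1 supplied 5.34% in resistant and 1.63% in parental PC3, and 43.6% in resistant and 52.4% in parental DU145. DUSP5 kept a similar share throughout, 37.1% in resistant and 33.1% in parental PC3, and 36.4% in resistant and 36.8% in parental DU145. The sum was led by DUSP4 and DUSP5 in PC3 and by DUSP1 and DUSP5 in DU145, whether resistant or parental. In parental PC3, however, DUSP6 was close behind at 30.5%, and its libraries overlapped those of DUSP5 in FPKM.

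**Figure D4:**
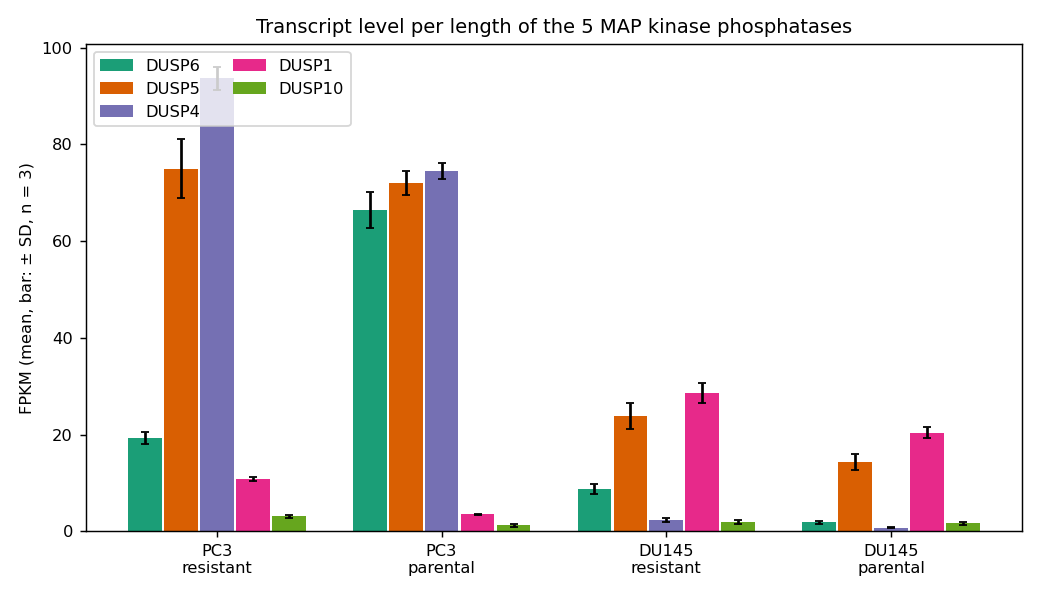
Mean FPKM of the 5 phosphatases in each group (bars, with SD over 3 libraries). DUSP6 averages 19.3 FPKM in resistant PC3, 66.4 in parental PC3, 8.83 in resistant DU145 and 1.88 in parental DU145, while DUSP4 and DUSP5 are the tallest bars in PC3, and DUSP1 and DUSP5 in DU145.

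Among all 10 members, PHLDA1 ranked highest per length in parental PC3 (91.6 FPKM) and in resistant DU145 (66.6 FPKM), DUSP4 in resistant PC3 (93.7 FPKM) and ETV5 in parental DU145 (26.1 FPKM). SPRY4 ranked 9 in resistant PC3 (5.56 FPKM) and 4 in parental PC3 (71.4 FPKM). Across the 4 groups, DUSP6, SPRY4, SPRED1, ETV4 and PHLDA1 shared 1 order, highest in parental PC3, then resistant PC3, resistant DU145 and parental DU145, with no overlap between neighbouring groups. DUSP4 and DUSP5 were highest in resistant PC3, then parental PC3, resistant DU145 and parental DU145, and for DUSP5 the PC3 groups overlapped. DUSP1 ran from resistant DU145 through parental DU145 and resistant PC3 to parental PC3. ETV5 was highest in the parental groups, PC3 before DU145, and lower in the resistant groups in the same order of lines. For DUSP10, the highest level was in resistant PC3, and parental DU145 overlapped both resistant DU145 and parental PC3.

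Related genes of the pathway were examined as lists, with calls from the same test. Of all genes tested, 22.4% rose and 21.6% fell in resistant PC3, and 18.9% rose and 20.7% fell in resistant DU145. Some list counts are near these shares, and no list was tested as a set. Of 5 other MAP kinase phosphatases, 1 rose and none fell in resistant PC3, while 1 rose and 1 fell in resistant DU145. DUSP7, an ERK phosphatase, rose in PC3 (0.47 ± 0.07). In DU145, DUSP9 rose (1.19 ± 0.32), to 4.11 CPM in the resistant against 1.80 CPM in the parental libraries, and DUSP16, a JNK and p38 phosphatase, fell (-0.64 ± 0.09). The PC3 count was 1 to 3 over the alternatives. DUSP2, an early nuclear phosphatase, did not pass in either line (2.07 ± 0.98 in PC3, adjusted p = 0.103; 0.44 ± 0.96 in DU145, adjusted p = 0.793; edgeR's quasi-likelihood test). Its level was low, at 1.09 CPM in resistant and 0.258 in parental PC3, and 0.329 in resistant and 0.242 in parental DU145.

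Of 8 other Sprouty, SPRED and receptor feedback genes, 2 rose and 4 fell in resistant PC3, with a median of -0.16, while 4 rose and 3 fell in resistant DU145, with a median of 0.30. In PC3 the receptor antagonists IL17RD (-1.49 ± 0.13) and LRIG1 (-1.41 ± 0.29) fell and ERRFI1, an inhibitor of the EGF receptor, rose (1.31 ± 0.05). In DU145 LRIG1 rose (2.74 ± 0.29), to 15.7 CPM in the resistant against 2.35 CPM in the parental libraries, and SPRED3 (-1.83 ± 0.48) and SPRY1 (-0.90 ± 0.20) fell. IL17RD (0.59 ± 0.14) and ERRFI1 (0.59 ± 0.05) rose in DU145 as well. SPRY1 also fell in PC3 (-0.85 ± 0.18), where SPRED3 did not pass. LRIG1 had only 0.726 CPM in resistant and 1.93 CPM in parental PC3, overlaps SLC25A26 on the opposite strand, and lost its PC3 call in limma on log2(FPKM + 1) (-0.21, adjusted p = 0.0636). SPRED3 lost its call when DU145 was fitted alone (-1.82, adjusted p = 0.0972). SPRY2 rose in PC3 (0.80 ± 0.09) and fell in DU145 (-0.58 ± 0.09), opposite to SPRY4 in both lines.

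Of 11 ETS factors and Capicua partners other than the members, 6 rose in each resistant subline, 3 fell in PC3 and 2 fell in DU145. ETS2 rose in PC3 (1.52 ± 0.06) and in DU145 (0.67 ± 0.06), as did ETS1 (0.55 ± 0.04 in PC3, 1.07 ± 0.04 in DU145). ATXN1, which encodes a partner of Capicua, fell in PC3 (-1.47 ± 0.06) and rose slightly in DU145 (0.17 ± 0.06). ATXN1L, also in this list, went the other way, rising in PC3 (0.48 ± 0.05) and falling slightly in DU145 (-0.15 ± 0.05). It overlaps exons of IST1 on the same strand, and its count is uncertain. ELK3 rose in both lines (0.42 ± 0.06 in PC3, 0.54 ± 0.06 in DU145). Capicua itself (CIC) fell slightly in PC3 (-0.29 ± 0.10; adjusted p = 0.0366) and did not pass in DU145 (-0.10 ± 0.10; adjusted p = 0.479; edgeR's quasi-likelihood test). Without resistant DU145 library 3 the DU145 count was 5 in place of 8. Without resistant PC3 library 1, which stood apart, 5 rose and 3 fell in PC3, and 6 rose and 3 fell in DU145.

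Of 22 genes of the Ras, RAF, MEK and ERK cascade, 8 rose and 6 fell in resistant PC3 (median 0.01), while 3 rose and 14 fell in resistant DU145 (median -0.26). In DU145 the kinase ARAF rose (1.38 ± 0.07), to 30.9 CPM in the resistant against 11.8 CPM in the parental libraries, and the kinase BRAF (-0.85 ± 0.08) fell. In PC3 the exchange factor SOS1 (-0.73 ± 0.07) and the ERK1 gene MAPK3 (-0.57 ± 0.09) fell, and the ribosomal S6 kinase RPS6KA2 rose (0.70 ± 0.08). ARAF also rose in PC3 (0.23 ± 0.07), where BRAF did not pass. RPS6KA2 fell in DU145 (-0.546 ± 0.075), where SOS1 and MAPK3 did not pass. Without resistant PC3 library 1, 8 rose and 7 fell in PC3. BRAF overlaps exons of NDUFB2 on the opposite strand, and its count is uncertain.

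Of 12 genes of the p38 and JNK arm, 5 rose and 6 fell in resistant PC3, while 3 rose and 6 fell in resistant DU145. MAPK13, a p38 kinase, fell in PC3 (-2.27 ± 0.09), to 6.02 CPM in the resistant against 29.04 CPM in the parental libraries, and rose in DU145 (1.41 ± 0.08). MAP2K6, a kinase above p38, fell in both (-0.79 ± 0.18 in PC3, -2.38 ± 0.20 in DU145). In PC3, 4 rose and 6 fell without resistant PC3 library 1. MAPKAPK2 rose in PC3 (0.83 ± 0.05) and fell in DU145 (-0.36 ± 0.05). MAPK8, the JNK1 gene, rose in both (0.48 ± 0.09 in PC3, 0.54 ± 0.09 in DU145).

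Of 14 other genes that ERK is known to induce, 9 rose and 1 fell in resistant PC3, with a median of 0.51, while 7 rose and 4 fell in resistant DU145, with a median of 0.36. In PC3 the growth factor EREG (1.78 ± 0.26), the uridine phosphorylase UPP1 (1.47 ± 0.06) and the urokinase receptor PLAUR (1.37 ± 0.06) rose, in the same libraries in which DUSP6 and SPRY4 fell. With resistant PC3 library 1 left out, 8 rose and none fell in PC3. EREG had 3.98 CPM in resistant and 1.15 CPM in parental PC3. In DU145 the receptor kinase EPHA2 (2.51 ± 0.04), the transcription factor EGR1 (2.36 ± 0.59) and IER3 (2.11 ± 0.06) rose. EPHA2 (0.93 ± 0.04) and IER3 (0.56 ± 0.05) also rose in PC3, where EGR1 did not pass. EGR1 was barely detected in PC3, at 0.214 CPM in the resistant and 0.229 CPM in the parental libraries. UPP1 (1.87 ± 0.06) and PLAUR (0.31 ± 0.06) also rose in DU145, where EREG did not pass. EGR1 had 41.6 ± 9.64 CPM in resistant and 8.12 ± 1.17 CPM in parental DU145, and its call was lost in DESeq2 (adjusted p = 0.0694) and without resistant library 3 (2.16, adjusted p = 0.0592).

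**Figure D5:**
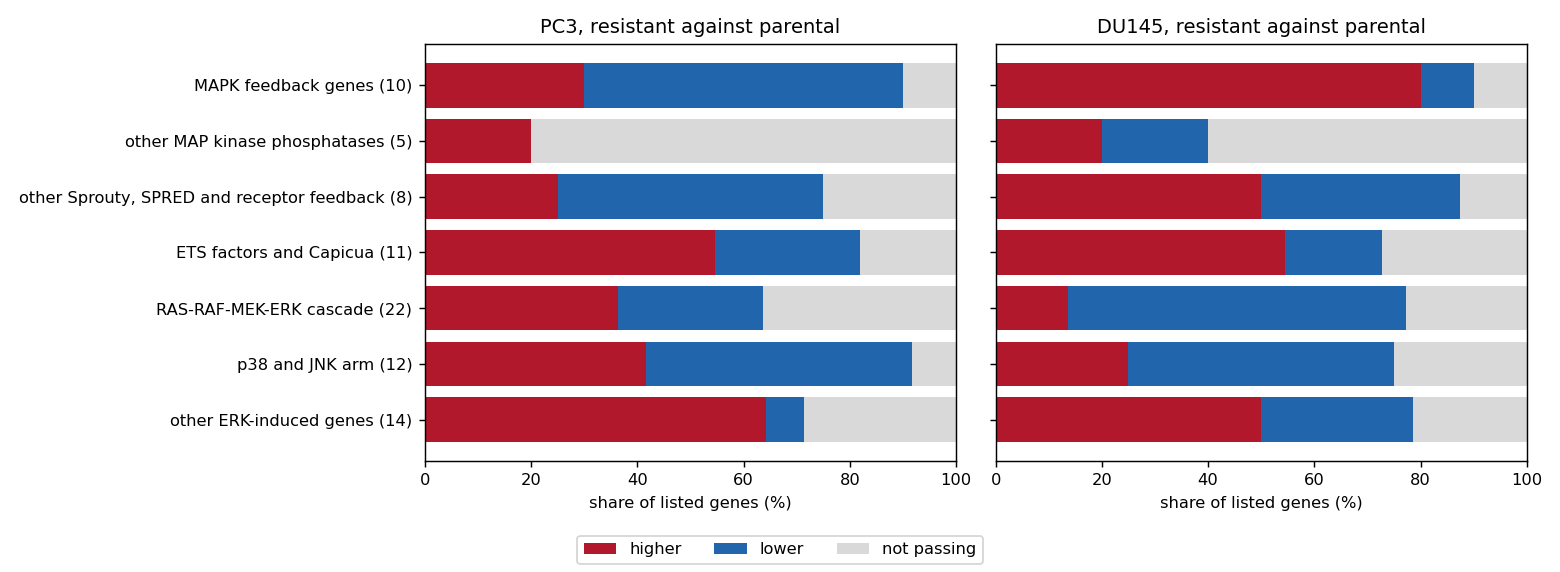
Share of the genes in each list that were higher, lower or did not pass in resistant against parental cells, for PC3 and DU145, with the number of genes listed in brackets. The 10 members show 3 higher and 6 lower in PC3 and 8 higher and 1 lower in DU145, whereas the 14 other ERK-induced genes show 9 higher and 1 lower in PC3 and 7 higher and 4 lower in DU145. Of all genes tested, 22.4% were higher and 21.6% lower in PC3, and 18.9% higher and 20.7% lower in DU145.

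The likeness of the members' patterns is given as Pearson's r of log2(CPM + 1) over the 12 libraries, which form 4 groups of 3 and are dominated by the difference between the lines, so no p is given. Among the members, DUSP4 and DUSP5 were most alike (r = 0.99), followed by SPRED1 and ETV4 (0.99). DUSP6 and SPRY4 had r = 0.94. DUSP1 had negative r with every member but DUSP10, down to -0.93 with SPRY4, and ETV5 had r of 0.60 with SPRY4 and 0.30 with ETV4. Among 12201 genes with a mean of at least 5 CPM, those most like DUSP6 were DIRAS1, C1QTNF1 and SOX9 (r = 0.9977, 0.996 and 0.9958). Those most like SPRY4 were SLC39A7, BCORL1 and ENTPD6 (0.9947, 0.9944 and 0.993), and those most like DUSP1 were PRSS23, FASTKD3 and NOL6 (0.9976, 0.9975 and 0.9965). The nearest gene was TNPO2 for DUSP4 (0.9985), SH3RF3 for DUSP5 (0.9958), DLG3 for SPRED1 (0.9952), ZNF503 for ETV4 (0.9987), PFKFB4 for ETV5 (0.9911) and RBM23 for PHLDA1 (0.9976). DUSP10 had the loosest nearest neighbour, C1orf74 (0.9613).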

How the data were processed

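Polyadenylated RNA was sequenced paired-end from 12 libraries, 3 in each of 4 groups taken from the sample titles. The tools used were HISAT2 2.0.4, StringTie 1.3.4d and cutadapt 1.9, with edgeR and DESeq2, per the submitters' processing notes. The build they name is hg18, but the deposited coordinates match GRCh38: of 37385 genes also in GENCODE on that build, 37377 overlapped. Neither the counting program nor its strand setting is given in the sources used here, and genes that overlap others are uncertain.

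For each sample the authors deposited raw counts and FPKM of 38611 genes, of which 71 lacked an FPKM. On the counts, filterByExpr kept 24128 genes, including all 10 members, whose counts per library ran from 178 to 48754. Libraries were scaled with TMM, and edgeR 4.0.16 in R 4.3.3 fitted all 12 libraries together, each group with its own mean, leaving 8 residual degrees of freedom. Contrasts were tested with its two-sided quasi-likelihood F test and Benjamini-Hochberg adjustment over all genes, at 0.05. A standard error is the log2 change divided by the square root of F. The script was tested on simulated data. At mean counts of 5 to 10, the variance within groups was on average 7.76 to 8.24 times the mean, so counts are not treated as independent molecules.

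FPKM were used for levels between genes. The alternatives were RLE and upper quartile scaling, no filter, a mean of at least 5 CPM, DESeq2 1.42.0, limma 3.58.1 on log2(FPKM + 1) and log2(FPKM + 0.1), each line alone, a replicate block and leaving out each of the 12 libraries. The members and gene lists were chosen with earlier results of these data known. All members were described; from each list, the 3 called genes with the largest change, with groups that did not overlap and at least 1 CPM, were named for each line, except 1 gene that is not reported here. DUSP2, SPRY2, CIC and ATXN1L were named outside that rule, after their values were seen. Of the likeness partners, the first 3 are given for DUSP6, SPRY4 and DUSP1 and the first for the other members. RefSeq promoter windows were matched by symbol, and none was matched for DUSP4, DUSP5, ETV4 and ETV5.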

Additional observations from a re-analysis of the deposited data

Results flagged for a closer look

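The resistance effect differed between the lines for all 10 members by edgeR's quasi-likelihood test of the difference, PC3 effect minus DU145 effect on the log2 scale, against 42.1% of all genes. In the members with opposite calls in the lines, the difference was -4.94 for SPRY4, -4.00 for DUSP6, -1.79 for PHLDA1, -1.48 for ETV4 and -0.80 for SPRED1. Each was lower in 3 of 3 resistant PC3 libraries and higher in 3 of 3 resistant DU145 libraries than in every parental library of its line. Of all genes, 54.4% had groups that did not overlap in PC3 and 51.2% in DU145. These members were picked because they passed in both lines, so their separation is no further support. In DUSP4, higher in both resistant sublines, the difference was -1.40, and in DUSP5, called only in DU145, it was -0.66. In DUSP1, higher in both, it was 1.13, in DUSP10, called only in PC3, it was 1.02, and in ETV5, lower in both, it was -0.21. No cause was tested.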

How the results depend on the processing

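No member changed direction in any alternative. Of the member results, 415 of those from other scalings, filters, tools, single-line fits and the block stayed on their side of the threshold and 5 lost the call; of those with 1 library left out, 591 stayed and 9 lost it. Members called were 9 in DU145 throughout, 9 in PC3 (8 to 9 with a library left out), 10 for the difference (9 to 10) and, between the lines, 9 in parental cells and 10 in resistant cells (8 to 10). ETV5 between resistant sublines was also lost in limma on log2(FPKM + 0.1) (0.09, adjusted p = 0.064). Upper quartile scaling moved the median of all genes between the resistant sublines to -0.118. Of the named list genes, 688 results stayed and 4 lost the call. The phosphatase list had 1 called gene in DU145 at a mean of at least 5 CPM, and in PC3 2 with upper quartile scaling, without a filter or at that minimum, and 3 in both limma fits. The causes were not tested.

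The replicate block (4 residual degrees of freedom) gave 9 called members in each line, 10 for the difference, and 9 and 10 between parental and resistant lines, and ended no member's call. Deviations of same-numbered libraries correlated at -0.05, 0.02 and -0.01 in DU145 and -0.06, 0.08 and -0.11 in PC3. Libraries of different numbers gave -0.08 to 0.13. No pairing by number was visible, but with 3 libraries per group this cannot exclude that same-numbered libraries were handled together.

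The lowest count of any member in any library was 178, and the DUSP5 change in PC3 (0.10 ± 0.09, SE) did not exceed the spread between its libraries by the test.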
